A study of Mus musculus with 4 samples.

Results

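Lactate dehydrogenase and monocarboxylate transport were followed in the soleus muscle through 6 genes, taken by symbol from the 23420 genes of the deposited table: Ldha and Ldhb, which encode the subunits of lactate dehydrogenase, Slc16a1 and Slc16a3, which encode the lactate transporters MCT1 and MCT4, and Bsg and Emb, which encode their partner proteins basigin and embigin. All 6 were expressed highly enough to be tested, since each averaged 10 normalized counts or more over the libraries, as 13287 genes did. Reads came from the soleus, a calf muscle rich in slow fibers, of 2 muHuR-KO and 2 control mice on the C57BL/6 background, aged 10 weeks. The muHuR-KO mice, with libraries muHuR-KO-1.9 and muHuR-KO-3.9, carry a Cre recombinase under the MyoD promoter (genotype MyoDCre+;LoxP-/- in the labels), which acts on muscle precursors of the embryo and removes exon 2 of Elavl1, the gene for the RNA-binding protein HuR. The control mice, with libraries Control-3.8 and Control-3.12, are littermates without Cre (MyoDCre-;LoxP-/-), and all 4 mice share the floxed Elavl1 gene that the study describes, although the labels write LoxP-/- for each of them. The question put to the data was whether the steady-state levels of these mRNAs differed between muHuR-KO and control soleus.

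Lactate dehydrogenase is a tetramer that interconverts pyruvate and lactate while it oxidizes or reduces NADH. The A subunit prevails in glycolytic, fast muscle and the B subunit in heart and in oxidative, slow muscle, so that the balance of the subunits is a classical mark of the metabolic type of a fiber. MCT1 and MCT4 carry lactate together with a proton across the plasma membrane, MCT1 mainly in oxidative fibers and MCT4 mainly in glycolytic fibers, and both need basigin or, in some cells, embigin to reach the membrane. HuR binds AU-rich stretches in the untranslated ends of mRNAs and alters their stability or translation.

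Since AU-rich elements are the kind of sequence that HuR is known to bind, the untranslated 3′ ends of the members were searched for the pentamer ATTTA and the nonamer TTATTTATT on the sense strand of 1 principal transcript a gene (GENCODE M21, GRCm38), with overlapping matches counted. The pentamer occurred 11 times in the 2740 bases of Slc16a1, 3 times in the 1353 bases of Emb, 2 times in the 2736 bases of Slc16a3 and once in the 338 bases of Bsg. It occurred 0 times in the 486 bases of Ldha and 0 times in the 188 bases of Ldhb. Among 12693 expressed genes with such an annotation, 68.2% held the pentamer and 7.45% held the nonamer, which was found in none of the 6. Of the genes with a 3′ end of similar length (0.8 to 1.25 times), 94.7% held the pentamer for Slc16a1, with a median of 4 matches, 94.8% for Slc16a3, also with a median of 4, 82.1% for Emb, with a median of 2, and 37.7% for Bsg, with a median of 0. For Ldha and Ldhb, 50.6% and 26.7% held it. Slc16a1 thus had more matches than the median of its length class and Slc16a3 fewer. For each member with a match, the window of 30 bases richest in A and T is printed here, so that the letters behind these counts can be read; capitals mark the pentamer, and all 4 windows lie on the plus strand of GRCm38 at chr3:104657226-104657255, chr11:120958179-120958208, chr10:79711741-79711770 and chr13:117274366-117274395 in the order given.
Slc16a1: tccaaataaaacATTTAttttatttttaga
Slc16a3: ggcaacgctcatATTTAtttcacaaacagg
Bsg: cccctgtttctaATTTAaactaaatgaggt
Emb: atgtttaccaatATTTAttagcaaaaataa
The Slc16a1 window had 26 A or T letters and the Slc16a3 window 18. The first is the richest around 11 matches and the second the richest around 2. A and T made up 61.5% of the whole 3′ end of Slc16a1 and 44.9% of that of Slc16a3, so the windows cannot be compared as they stand. A match is a string of letters and not a binding site, and HuR binding was not measured in these libraries.

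The libraries held 30362871 reads on genes in muHuR-KO-1.9, 33348893 in muHuR-KO-3.9, 25767295 in Control-3.8 and 13301715 in Control-3.12, recovered from the deposited normalized counts (reads per gene scaled by the library's size factor). Elavl1 itself had 1210 and 1205 normalized counts in the muHuR-KO libraries, against 1350 in Control-3.8 and 1190 in Control-3.12, and these whole-gene counts do not check the removal of exon 2. The controls did not resemble each other: the fold changes of muHuR-KO against Control-3.8 ran with GC content, with a median log2 fold change of 0.99 in the lowest of 10 equal groups of tested genes by GC content and of -0.34 in the highest, whereas the same medians were -0.15 and 0.08 against Control-3.12. Every comparison was made with limma against both controls and against each control singly, the lone control being assumed to vary like the muHuR-KO pair. Against both controls 0% of the 13287 genes passed an adjusted p of 0.05 (0.768%, or 102 genes, had an unadjusted p under 0.05, and edgeR and DESeq2 on the recovered reads also called 0), against Control-3.8 9.81% passed and against Control-3.12 0% passed (4.74%, or 630 genes, unadjusted, with 1 gene called by edgeR and 9 by DESeq2). The 1304 genes called against Control-3.8 were made up of 1287 higher (9.69%) and 17 lower (0.128%) in muHuR-KO, and 593 of the higher ones were in the group of lowest GC content. Markers of the mixed fibers of the soleus were present in each library: Myh7, the slow myosin heavy chain, had 447856 and 509562 normalized counts in muHuR-KO and 717916 and 493302 in control libraries, and Myh2, the myosin of type IIa fibers, had 352776 and 368027 against 292760 and 470989. Myh4, the myosin of type IIb fibers, set 1 library of each group apart, with 18766 in muHuR-KO-1.9 and 2021 in muHuR-KO-3.9, against 21982 in Control-3.8 and 1702 in Control-3.12.

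None of the 6 members passed the test for a difference between muHuR-KO and control soleus. In each of the 3 comparisons 0 of 6 members passed an adjusted p of 0.05 from limma, read against the 0%, 9.81% and 0% of all genes given above, and the lowest adjusted p of any member was 0.224, for Bsg against Control-3.8. The median log2 fold change of the members was -0.13 against both controls, -0.21 against Control-3.8 and -0.03 against Control-3.12, beside medians of -0.01, -0.04 and -0.03 over all 13287 genes. For 2 of the 6 members (33.3%), Ldhb and Slc16a1, both muHuR-KO libraries lay below both controls, where 13% of all tested genes lay so, 9.57% lay above both controls and 22.6% did not overlap in either direction. After the GC correction described with Slc16a1, 3 of 6 members (50%) did not overlap, beside 24.4% of all genes. In bulk muscle, less RNA of a gene per fiber and fewer fibers that express it cannot be told apart.

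**Figure D1:**
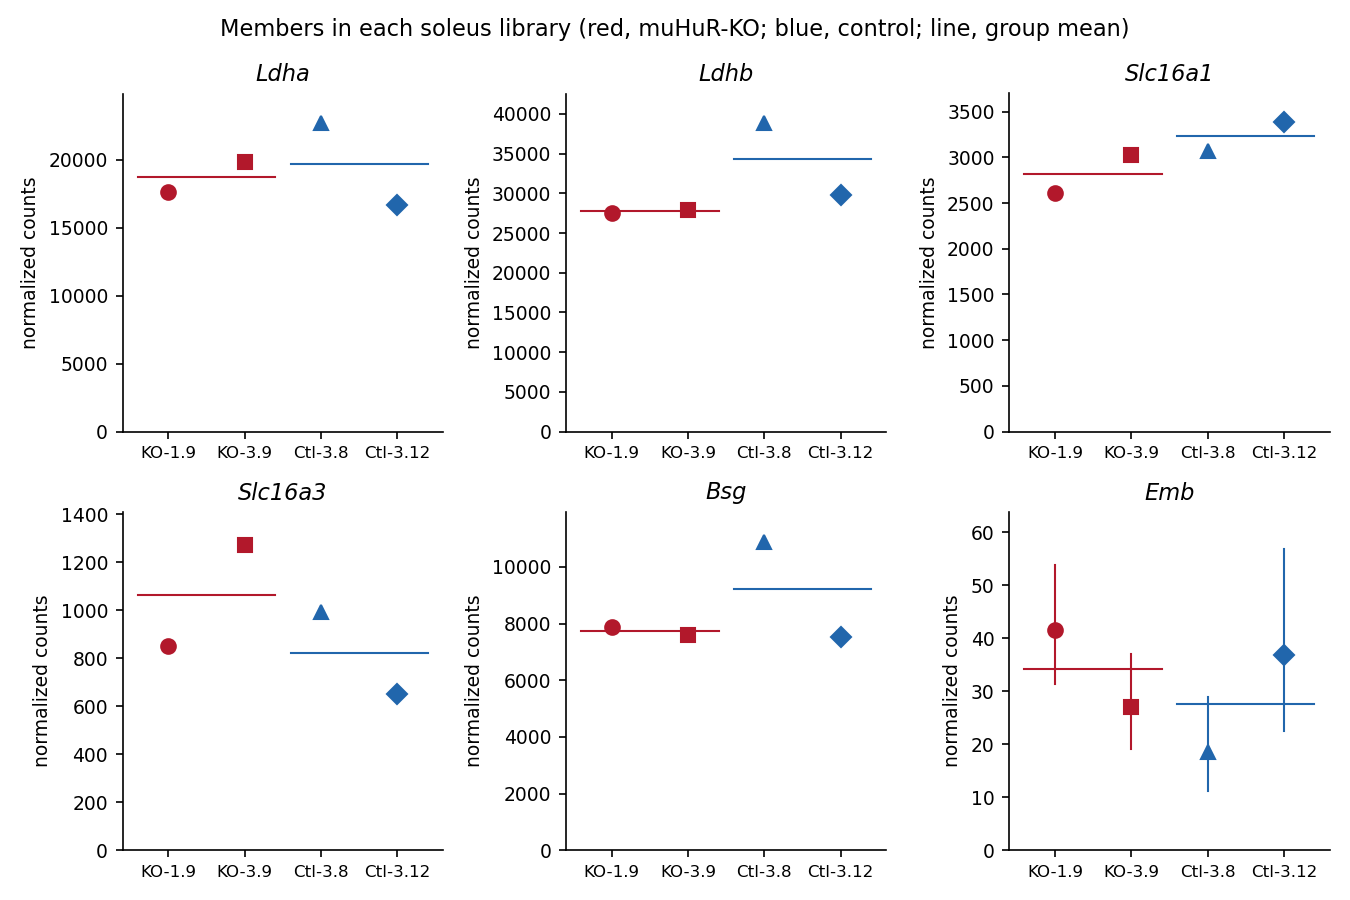
Normalized counts of the 6 members in each soleus library, with red marks for muHuR-KO (KO) libraries, blue marks for control (Ctl) libraries, a line for the mean of each group and, for Emb, bars for the exact Poisson interval of 95%. The muHuR-KO libraries lie below both controls for Ldhb and Slc16a1 and between or across them for Ldha, Slc16a3, Bsg and Emb, and Control-3.8 holds the highest value of Ldha, Ldhb and Bsg.

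Ldha (ENSMUSG00000063229.15), whose A subunit is the form of fast muscle, lies on chromosome 7 of GRCm38 from 46841475 to 46855627 on the plus strand. It had 17635 normalized counts in muHuR-KO-1.9 and 19808 in muHuR-KO-3.9, against 22719 in Control-3.8 and 16697 in Control-3.12. Both muHuR-KO libraries thus lay between the controls. The means were 18722 ± 1536 in muHuR-KO and 19708 ± 4259 in control soleus (SD, n = 2 each). The log2 fold change was -0.06 against both controls (standard error 0.29, interval of 95% between -0.73 and 0.61, adjusted p = 0.9999 from limma), and it was -0.28 against Control-3.8 and 0.16 against Control-3.12, so that the direction depended on the control. In the reference, 11 processed pseudogenes matched at least 300 bases of the Ldha transcript at 90% identity or more (up to 95.9%), so reads of Ldha may have been shared with them in the counting; the 1 of them found in the table, Gm13315, held 5.24 normalized counts over all 4 libraries.

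Ldhb (ENSMUSG00000030246.11), whose B subunit is the form of heart and slow muscle, lies on chromosome 6 from 142490249 to 142507957 on the minus strand. It had 27580 normalized counts in muHuR-KO-1.9 and 27839 in muHuR-KO-3.9, against 38844 in Control-3.8 and 29810 in Control-3.12. The muHuR-KO libraries were nearly equal and both lay below both controls, but the distance between the controls was larger than that of the muHuR-KO pair from Control-3.12. The means were 27710 ± 183 in muHuR-KO and 34327 ± 6388 in control soleus (SD, n = 2 each). The log2 fold change was -0.30 against both controls (standard error 0.29, interval -0.96 to 0.37, adjusted p = 0.9999 from limma). It was -0.49 against Control-3.8 and -0.11 against Control-3.12, each with a standard error of 0.25, at adjusted p = 0.286 and 0.9998 from limma. The processed pseudogene Gm5514 matched 98.0% of 1002 bases of Ldhb, which leaves the same uncertainty of read sharing. Gm5514 was not found by symbol among the deposited genes.

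The ratio of Ldha to Ldhb within a library does not depend on its size factor. It was 0.639 in muHuR-KO-1.9 and 0.712 in muHuR-KO-3.9, against 0.585 in Control-3.8 and 0.560 in Control-3.12. The ratio was higher in both muHuR-KO libraries than in both controls, with means of 0.675 ± 0.051 in muHuR-KO and 0.572 ± 0.018 in control soleus (SD, n = 2 each), a 1.18-fold difference (0.24 on the log2 scale). The exact two-sided permutation test gave p = 0.333, the smallest p that 2 libraries against 2 can give, so the difference could not pass a threshold of 0.05 in this design. As a share of the reads of both genes, Ldha made up 39.0% (Wilson interval of 95%, 38.6 to 39.4%) in muHuR-KO-1.9 and 41.6% (41.2 to 41.9%) in muHuR-KO-3.9. The share was 36.9% (36.5 to 37.3%) in Control-3.8 and 35.9% (35.3 to 36.5%) in Control-3.12. The intervals of the 4 libraries did not overlap, with the narrowest margin between the controls, and they cover counting error only, not the spread between mice. Per kilobase of transcript the ratio was 0.525 and 0.584 in the muHuR-KO libraries and 0.480 and 0.460 in the controls, so Ldhb was the more abundant subunit mRNA in every library.

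The ratio of slow to fast fiber genes did not follow the same order. The summed normalized counts of 8 slow fiber genes divided by those of 11 fast fiber genes came to 0.775 in muHuR-KO-1.9 and 0.985 in muHuR-KO-3.9, against 1.35 in Control-3.8 and 0.736 in Control-3.12. Control-3.8 was thus the library with the highest slow to fast ratio and the second lowest Ldha to Ldhb ratio, and Control-3.12 was the lowest in both.

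**Figure D2:**
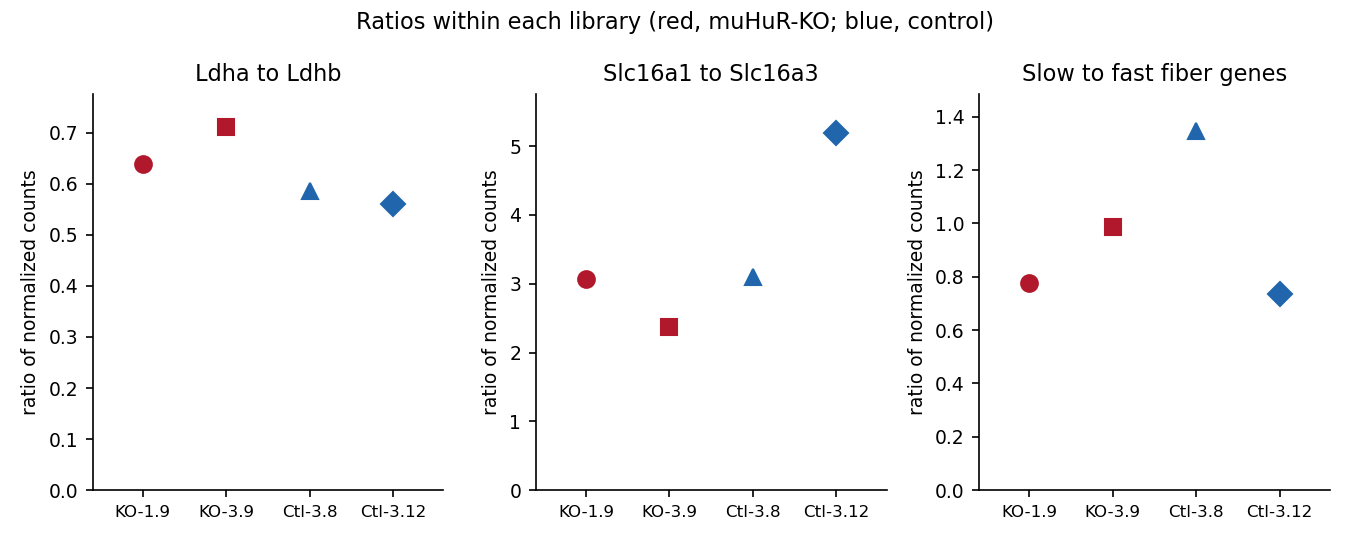
Ratios of normalized counts within each library for Ldha to Ldhb, Slc16a1 to Slc16a3 and the sums of slow to fast fiber genes, with red marks for muHuR-KO (KO) and blue marks for control (Ctl) libraries; 1 mark is 1 library. The Ldha to Ldhb ratio is 0.639 and 0.712 in muHuR-KO against 0.585 and 0.560 in control libraries, while the slow to fast ratio of the muHuR-KO libraries lies between those of the controls.

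Slc16a1 (ENSMUSG00000032902.1), which encodes MCT1, the transporter of oxidative fibers, lies on chromosome 3 from 104638668 to 104658462 on the plus strand. It had 2608 normalized counts in muHuR-KO-1.9 and 3029 in muHuR-KO-3.9, against 3072 in Control-3.8 and 3385 in Control-3.12. Both muHuR-KO libraries were below both controls, by a narrow margin between muHuR-KO-3.9 and Control-3.8, whose exact Poisson intervals (2939 to 3121 and 2966 to 3181) overlapped. The log2 fold change was -0.20 against both controls (standard error 0.26, interval -0.79 to 0.40, adjusted p = 0.9999 from limma), -0.13 against Control-3.8 and -0.27 against Control-3.12. Slc16a1 has a GC content of 42.9%, in the second lowest of these groups, whose median log2 fold change against Control-3.8 was 0.59. After a loess correction of each library against GC content the log2 fold change of Slc16a1 was -0.68 against Control-3.8 (adjusted p = 0.104 from limma) and -0.17 against Control-3.12, which is the largest shift that this correction gave to a member, and in that fit 3.45% of all genes passed against Control-3.8 and 0.152% against Control-3.12.

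Slc16a3 (ENSMUSG00000025161.16), which encodes MCT4, the transporter of glycolytic fibers, lies on chromosome 11 from 120948480 to 120960868 on the plus strand. It had 850 normalized counts in muHuR-KO-1.9 and 1274 in muHuR-KO-3.9, against 991 in Control-3.8 and 651 in Control-3.12. The groups overlapped, and the muHuR-KO libraries differed from each other by -0.58 on the log2 scale (muHuR-KO-1.9 minus muHuR-KO-3.9), more than for any other member except Emb. The log2 fold change was 0.37 against both controls (standard error 0.33, interval -0.40 to 1.14, adjusted p = 0.9999 from limma) and 0.07 against Control-3.8. Against Control-3.12 it was 0.68 (standard error 0.27, interval 0.06 to 1.29), with an unadjusted p of 0.0337 and an adjusted p of 0.982 from limma; 4.74% of all genes had an unadjusted p under 0.05 in that comparison. The values rested in part on muHuR-KO-3.9, without which the log2 fold change was 0.38 against Control-3.12 and 0.08 against both controls. After the GC correction both muHuR-KO libraries lay above both controls, as 11.1% of all genes did, and the log2 fold change was 0.48 against both controls (adjusted p = 0.9994 from limma).

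The ratio of Slc16a1 to Slc16a3 was 3.07 in muHuR-KO-1.9 and 2.38 in muHuR-KO-3.9, against 3.10 in Control-3.8 and 5.20 in Control-3.12. The muHuR-KO libraries were lower than both controls, but muHuR-KO-1.9 and Control-3.8 were almost equal. The means were 2.72 ± 0.49 in muHuR-KO and 4.15 ± 1.48 in control soleus (SD, n = 2 each), a log2 difference of -0.57, and the exact two-sided permutation test gave p = 0.333, the smallest it can give. The difference was -0.20 against Control-3.8 alone and -0.94 against Control-3.12 alone, and -0.90 against both after the GC correction.

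Bsg (ENSMUSG00000023175.15), which encodes basigin, the chaperone that carries MCT1 and MCT4 to the membrane, lies on chromosome 10 from 79704491 to 79711969 on the plus strand. It had 7888 normalized counts in muHuR-KO-1.9 and 7603 in muHuR-KO-3.9, against 10887 in Control-3.8 and 7529 in Control-3.12. The other libraries were within a narrow range and Control-3.8 stood above them. The log2 fold change was -0.23 against both controls (standard error 0.29, interval -0.89 to 0.44, adjusted p = 0.9999 from limma) and 0.04 against Control-3.12. Against Control-3.8 it was -0.49 (standard error 0.22, interval -0.98 to -0.004), with an unadjusted p of 0.0484 and an adjusted p of 0.224 from limma, where 22% of all genes had an unadjusted p under 0.05. Bsg has a GC content of 57.6%, in a group whose median log2 fold change against Control-3.8 was -0.31, and after the GC correction its own value was -0.23 (adjusted p = 0.677 from limma).

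Emb (ENSMUSG00000021728.8), which encodes embigin, a relative of basigin that escorts monocarboxylate transporters in other tissues, lies on chromosome 13 from 117208536 to 117274415 on the plus strand. It was weakly expressed, with 41.5 normalized counts (56 reads) in muHuR-KO-1.9 and 26.9 (38 reads) in muHuR-KO-3.9, against 18.6 (19 reads) in Control-3.8 and 36.8 (20 reads) in Control-3.12. The exact Poisson intervals were 31.4 to 53.9 and 19.1 to 37.0 in the muHuR-KO libraries, against 11.2 to 29.0 and 22.5 to 56.8 in the controls. The groups overlapped, and the interval of muHuR-KO-1.9 lay above that of Control-3.8 but not above that of Control-3.12. The log2 fold change was 0.34 against both controls (standard error 0.50, interval -0.83 to 1.51, adjusted p = 0.9999 from limma), 0.82 against Control-3.8 and -0.13 against Control-3.12. The gene Gm17509 on the opposite strand overlaps Emb, with 686 bases of identical sequence, and their reads cannot be told apart without a stated strand setting. Gm17509 was not found by symbol among the deposited genes.

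**Figure D3:**
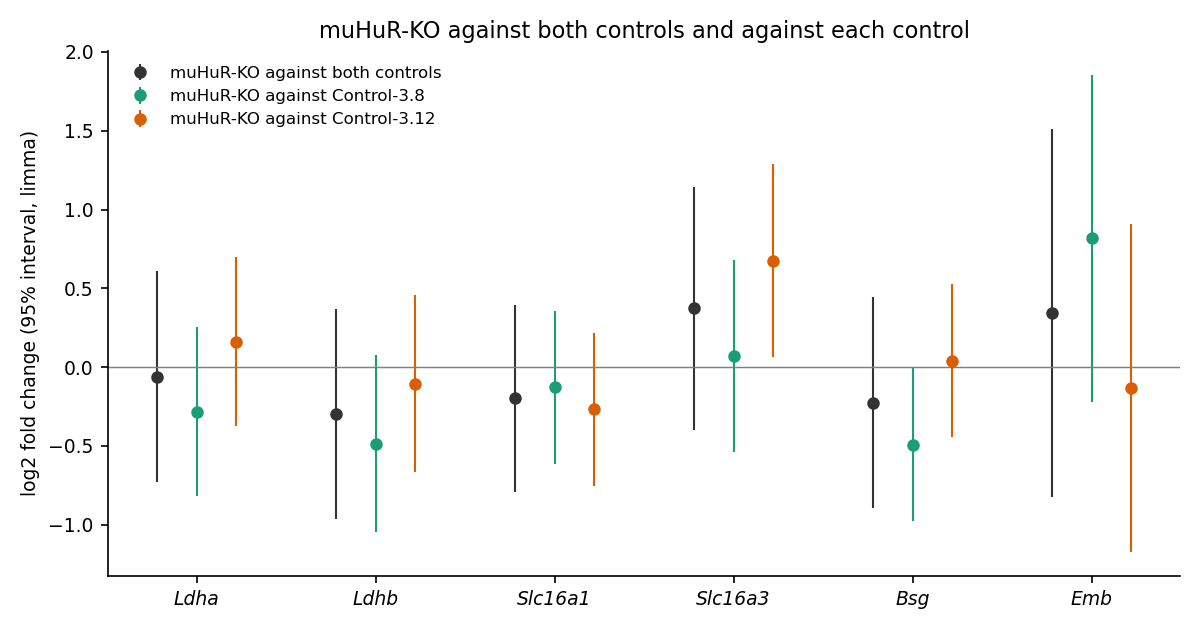
Log2 fold change of each member with its interval of 95% from limma, for muHuR-KO against both controls (black), against Control-3.8 (green) and against Control-3.12 (orange). The intervals include 0 except for Bsg against Control-3.8 (-0.98 to -0.004) and Slc16a3 against Control-3.12 (0.06 to 1.29), and Ldha, Bsg and Emb change sign between the controls.

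**Figure D4:**
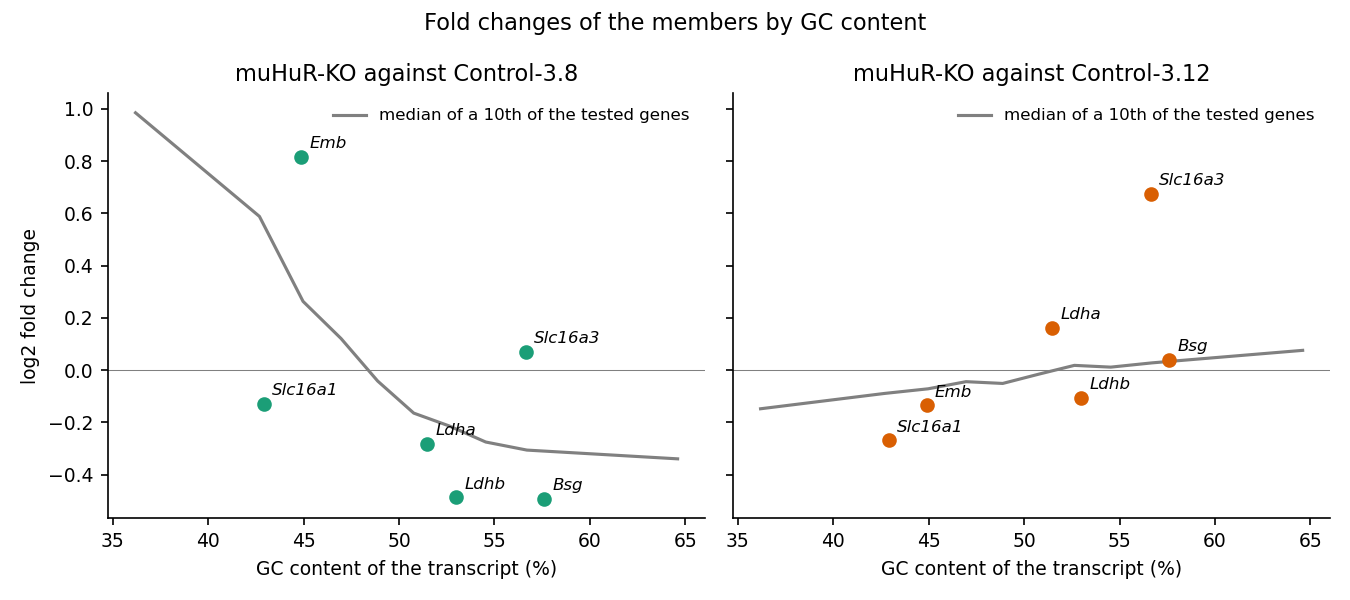
Log2 fold change of each member against the GC content of its transcript (points), for muHuR-KO against Control-3.8 (left) and against Control-3.12 (right), with a grey line through the medians of the 10 groups of tested genes, drawn at the middle of each group's range of GC content. Against Control-3.8 the grey line runs between 0.99 and -0.34, with Slc16a1, Ldha, Ldhb and Bsg below it and Emb and Slc16a3 above it. Against Control-3.12 the line runs between -0.15 and 0.08.

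Levels can be compared between genes only per length. Per kilobase of the principal transcript, Ldhb had 21151 to 29789 normalized counts over the 4 libraries, Ldha 10514 to 14307, Bsg 4934 to 7134, Slc16a1 589 to 765, Slc16a3 150 to 294 and Emb 6.35 to 14.2. These ranges did not overlap between any neighbours in this order, so the order held in every library. With the length of all annotated exons in place of the principal transcript, Ldha (5044 to 6864) and Bsg (4150 to 6002) overlapped. In the rank of mean normalized counts among the tested genes, Ldhb stood at position 87 and Ldha at position 129 of 13287, and Emb at position 11870. Basigin mRNA was therefore far more abundant than embigin mRNA, with ratios per kilobase of 364 and 541 in the muHuR-KO libraries against 1124 and 392 in the controls.

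The members also differed in how far apart the libraries lay. The highest library exceeded the lowest 1.30-fold for Slc16a1, 1.36-fold for Ldha, 1.41-fold for Ldhb, 1.45-fold for Bsg, 1.96-fold for Slc16a3 and 2.24-fold for Emb. The controls differed from each other by 0.38 to 0.53 on the log2 scale for Ldha, Ldhb and Bsg, each of them higher in Control-3.8. By contrast, Emb was lower in Control-3.8 than in Control-3.12, by 0.95 on the log2 scale. The pattern over the libraries, taken as the root mean square difference of log2 values after the mean of each gene was subtracted, was nearest for Ldhb and Bsg (0.068) among pairs of members, and Ldha differed by 0.118 from Bsg and by 0.132 from Ldhb. Among 9958 other genes that averaged 100 normalized counts or more, those nearest to Ldhb were Pkm (0.008), which encodes the muscle pyruvate kinase, Ccdc97 (0.013) and Tprgl (0.014). Those nearest to Ldha were 1110004E09Rik (0.007), Klhdc3 (0.012) and Kifc3 (0.014), those nearest to Bsg were Ssu72, Tmem223 and Nsmce4a (0.010 to 0.011), and those nearest to Slc16a1 were Txndc5 (0.004), Gpr89 and Supt4a (0.023 each). With only 4 libraries such a likeness is common, since 998 genes lay within 0.1 of Ldhb, 1044 of Ldha, 915 of Bsg and 586 of Slc16a1. The pattern of Slc16a3 was rarer, with 13 genes within 0.1, and the nearest were Zfp36 (0.040), Ctgf (0.056) and Mn1 (0.061). Zfp36, which encodes the AU-rich element binding protein tristetraprolin, had 720 and 1012 normalized counts in the muHuR-KO libraries, against 786 in Control-3.8 and 537 in Control-3.12. The nearest to Emb were Sri (0.041), Nfia (0.044) and Dio2 (0.063), with 40 genes within 0.1.

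Other genes of lactate dehydrogenase and monocarboxylate transport gave no call. Of 3 further dehydrogenase genes only Ldhd, which encodes the mitochondrial D-lactate dehydrogenase, was tested, with 401 and 760 normalized counts in the muHuR-KO libraries against 717 and 675 in the controls, and Ldhc, the form of the testis, was at 0 reads in every library, which allows for up to 3 reads in each. Of 15 genes for other monocarboxylate transporters, with the basigin relative Nptn among them, 10 were tested, 0 rose and 0 fell in each of the 3 comparisons, and the median log2 fold change against both controls was -0.02. Slc16a12, known as a creatine transporter, had 36.3 and 62.4 normalized counts in muHuR-KO against 22.5 and 46.0 in control libraries, and Slc16a7, which encodes MCT2, had 14.8 and 14.9 against 14.6 and 29.4. The level of MCT2 mRNA was thus far below that of MCT1 in each library, although these counts are not scaled for length.

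The 16 glycolytic enzymes had a common sign against Control-3.8 only. None of the 16 passed in any comparison, 16 of 16 had a negative log2 fold change against Control-3.8 (median -0.37, beside -0.04 over all genes) and 6 of 16 against Control-3.12 (median 0.02). After the GC correction 13 of 16 were negative against Control-3.8, with a median of -0.20. Hk2, the hexokinase of muscle, had 12683 and 14751 normalized counts in muHuR-KO against 18359 and 15045 in control libraries, and Eno1 had 62.3 and 106 against 135 and 90.1. Pkm, the neighbour of Ldhb in pattern, had 38258 and 39047 in muHuR-KO against 53725 and 41314 in control libraries, a log2 fold change of -0.29 against both controls (adjusted p = 0.9999 from limma).

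Pyruvate entry and disposal gave 1 call among 17 genes. Dld, the dihydrolipoamide dehydrogenase subunit of the pyruvate dehydrogenase complex, had 8787 and 9148 normalized counts in muHuR-KO libraries, against 4928 in Control-3.8 and 10998 in Control-3.12. It was called higher against Control-3.8 (log2 fold change 0.86, adjusted p = 0.035 from limma), where 9.69% of all genes were, but its GC content is 40.6%, and after the GC correction the value was 0.06 (adjusted p = 0.917 from limma). Against Control-3.12 its log2 fold change was -0.30. The muHuR-KO libraries thus lay between the controls for Dld. The part of GC content in its values was not tested.

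The NADH shuttles, which compete with lactate dehydrogenase for cytosolic NADH, gave 0 calls among 9 genes in each comparison. Their summed normalized counts were 88302 and 97055 in the muHuR-KO libraries, against 121251 and 100221 in the controls, so that both muHuR-KO libraries were lower, and 8 of 9 genes had a negative log2 fold change against both controls (median -0.15, beside -0.01 over all genes, of which 49.3% were positive). The median was -0.28 against Control-3.8, beside -0.04 over all genes, and -0.03 against Control-3.12, equal to that of all genes. Got2, the mitochondrial aspartate aminotransferase, had 19519 and 20490 in muHuR-KO against 29054 and 23558 in control libraries (log2 fold change -0.39, adjusted p = 0.9999 from limma), and Mdh2, the mitochondrial malate dehydrogenase, had 17887 and 20117 against 26956 and 21391. Their groups did not overlap, as for 13% of all genes in this direction.

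Among 9 tested genes of acid handling, which buffer or move the protons that leave with lactate, 1 was called. This is near the share of all genes called higher against Control-3.8, given above. Slc4a7, a sodium bicarbonate cotransporter, had 600 and 683 normalized counts in muHuR-KO libraries, against 277 in Control-3.8 and 909 in Control-3.12, called higher against Control-3.8 (log2 fold change 1.20, adjusted p = 0.012 from limma), a value that was 0.51 after the GC correction (adjusted p = 0.294 from limma). Among 10 regulators of these genes, 1 was called, again against Control-3.8 and again near the share of all genes called higher there. Hif1a, the hypoxia-inducible factor that is known to raise Ldha and Slc16a3 transcription, had 1032 and 955 normalized counts in muHuR-KO libraries, against 411 in Control-3.8 and 1203 in Control-3.12 (log2 fold change 1.27 against Control-3.8, adjusted p = 0.0092 from limma). It was 0.54 after the GC correction (adjusted p = 0.223 from limma) and -0.28 against Control-3.12. For both genes the muHuR-KO libraries lay between the controls.

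The sign of the slow fiber genes depended on the control as well. All 8 slow fiber genes had a negative log2 fold change against Control-3.8 (median -0.61) and 6 of 8 a positive one against Control-3.12 (median 0.17), with 0 calls in either. Myh7 had a log2 fold change of -0.32 against both controls and Atp2a2, the slow calcium pump, one of -0.30 (adjusted p = 0.9999 each from limma). Of 11 fast fiber genes 1 was called, Myh1, the myosin of type IIx fibers, a share near that of all genes called higher against Control-3.8. Most of the list had the other sign: 9 of the 11 genes had a negative log2 fold change against Control-3.8 (median -0.19). Against Control-3.12, 6 of the 11 were negative (median -0.04). Myh1 had 152186 and 158075 normalized counts in muHuR-KO libraries, against 54545 in Control-3.8 and 229802 in Control-3.12. Its log2 fold change was 1.51 against Control-3.8 (adjusted p = 0.018 from limma), 1.68 there after the GC correction (adjusted p = 0.011 from limma) and -0.57 against Control-3.12. After the GC correction Pvalb, the calcium buffer of fast fibers, was also called, higher against Control-3.12 (log2 fold change 1.31, adjusted p = 0.045 from limma), with 10633 and 7029 normalized counts in muHuR-KO libraries, against 9185 in Control-3.8 and 3556 in Control-3.12. Before it, the adjusted p was 0.460. In the corrected fit against Control-3.12, 5 of the 11 fast fiber genes were positive and 6 negative (median -0.08). The share of all genes that passed in that fit is given with Slc16a1. The part of fiber type in the values of the lactate genes was not tested.

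**Figure D5:**
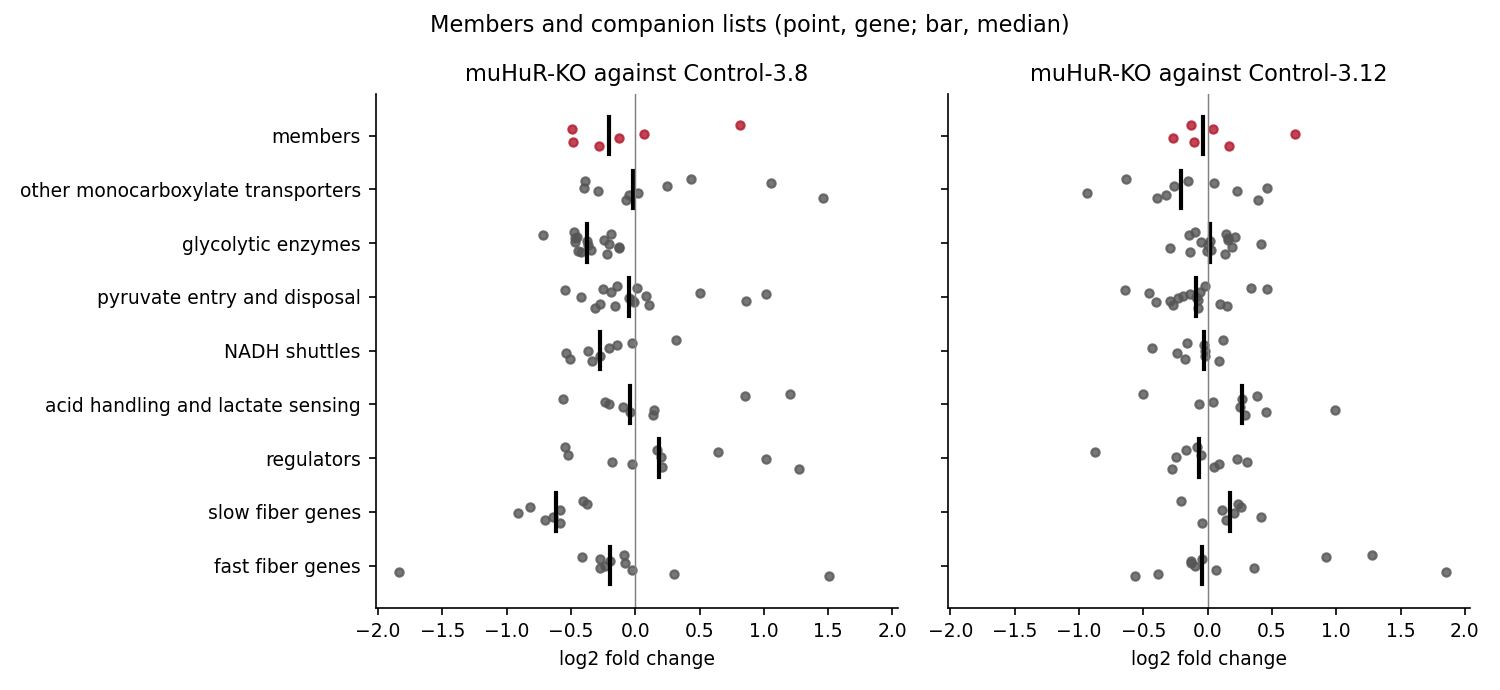
Log2 fold changes of the members (red points) and of the genes of 8 companion lists (grey points) for muHuR-KO against Control-3.8 (left) and against Control-3.12 (right), with a bar at the median of each list. All 16 glycolytic enzymes and all 8 slow fiber genes lie below 0 against Control-3.8, and 10 of 16 and 6 of 8 lie above 0 against Control-3.12. Of the 11 fast fiber genes, 9 lie below 0 against Control-3.8 and 6 against Control-3.12.

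Markers of other cells in the muscle were counted because some of those cells also express the members, Slc16a1 and Bsg being known from endothelial cells and erythrocyte precursors. The 6 endothelial markers summed to 18411 and 13162 normalized counts in the muHuR-KO libraries against 16683 and 15691 in the controls. The 5 erythrocyte markers found by symbol summed to 138 to 298 in each library, with Hba-a1, a near-identical copy of Hba-a2, at 0. The 6 fibroblast markers were the one set with higher sums in both muHuR-KO libraries, at 71994 and 43176 against 38121 and 43133. The sum of muHuR-KO-3.9 was nearly equal to that of Control-3.12, so the difference rested on muHuR-KO-1.9. For most of the 6 markers taken singly, the groups overlapped. The 5 macrophage markers summed to 1078 and 688 against 504 and 760, and the 5 adipocyte markers to 11063 and 8321 against 8134 and 10319. The 5 muscle markers, led by Acta1 and Ttn, summed to 1710890 and 2157410 in the muHuR-KO libraries against 2239180 and 1947770 in the controls. Of these markers, Cd163, Ptprc and Lep were called, all higher against Control-3.8 (adjusted p = 0.0092 to 0.025 from limma). After the GC correction Cd163 (log2 fold change 1.42, adjusted p = 0.028) and Lep (2.17, adjusted p = 0.0097) were still called there by limma and Ptprc was not (0.78, adjusted p = 0.329), while the endothelial marker Emcn was called lower (-1.10, adjusted p = 0.045). Against Control-3.12 the log2 fold change was 0.02 for Cd163, -0.44 for Ptprc and -0.88 for Lep, with 0 calls. Emcn did not stand for its list. Its log2 fold change against Control-3.8 was -0.30 before the correction. After it, 3 of the 6 endothelial markers were positive there and 3 negative (median 0.02). The calls of markers against Control-3.8 are to be read beside the shares of all genes called there, given above. The part of these cells in the values of the members was not tested.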

How the data were processed

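Total RNA of 4 soleus muscles was extracted with TRIzol and sequenced as paired ends on a NextSeq platform. According to the labels and the study's methods, the authors trimmed adapters, aligned reads to mm10 (GRCm38) with TopHat2 2.0.10 and counted them per gene with HTSeq 0.6.1. The deposited signal columns are the authors' counts divided by the DESeq2 size factor of each library; the annotation, strand setting and DESeq2 version are not given in the sources used here. Columns with the authors' own fold changes and p-values were not used. Whole reads were recovered in 100% of values (tolerance 0.01), and these reads on genes give the depth of each library; the intervals of counts and shares cover counting error only.

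Normalized counts were transformed to log2(value + 1), so fold changes of low genes are understated. Genes with a mean of at least 10 were fitted with limma 3.58.1 (eBayes with trend, R 4.3.3), and p-values were adjusted by Benjamini-Hochberg over 13287 genes. Residual degrees of freedom were 2 against both controls and 1 against a single control (prior 5.62 and 8.34). Ratios were compared by exact permutation. Alternatives were pseudocounts of 0.5 and 5, filters of none and of a mean of 50, DESeq2 1.42.0 and edgeR 4.0.16 on the recovered reads, TMM factors, eBayes without a trend, a loess correction for GC content (span 0.4, 13199 genes) and leaving out each library. The script was tested on simulated data. Gene models came from GENCODE M21, matched for 23054 of 23420 symbols; copies were sought with blastn 2.17.0 and tables made with Python 3.11.15. The members, lists and tests were chosen with earlier results of these data known. Genes named are the 6 members, in each list those past the threshold in any comparison (at most 4) or otherwise the 2 of smallest p against both controls, up to 3 markers of a cell type, and the 3 genes nearest to each member; Pkm in its list, Myh2, Myh4 and Myh7 as tissue markers, Pvalb, Emcn and Ldhc were named after their values were seen. The result of 1 marker list is not reported here.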

Additional observations from a re-analysis of the deposited data

How the results depend on the processing

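None of the 212 tests of the 6 members, over 3 comparisons and their alternatives, reached an adjusted p of 0.05 from limma, edgeR or DESeq2, and the lowest was 0.104, for Slc16a1 against Control-3.8 after the GC correction. Against both controls, Ldha had a log2 fold change of -0.06, which was 0.0052 after the GC correction and -0.28 to 0.16 when each library was left out in turn, with 0.02 without muHuR-KO-1.9 and 0.16 without Control-3.8. Without Control-3.8, Bsg turned to 0.041 and Emb to -0.13, and over all libraries left out they ran between -0.49 and 0.041 and between -0.13 and 0.82. Slc16a3 against Control-3.8 ran between -0.22 (without muHuR-KO-3.9) and 0.36, against 0.07 with all libraries; the same range was 0.38 to 0.97 against Control-3.12 and 0.07 to 0.68 against both controls. Against Control-3.12, Bsg was -0.018 after the GC correction and Emb ran between -0.44 and 0.17, with 0.17 without muHuR-KO-3.9. Ldhb, Slc16a1 and both ratios kept their direction in every alternative run; the log2 difference of the Ldha to Ldhb ratio ran between 0.16 and 0.31, and that of the Slc16a1 to Slc16a3 ratio between -0.94 and -0.20, when each library was left out.

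The count of genes called against both controls was 0, and between 0 and 1266 when a library was left out (1266 without Control-3.12 and 2 without Control-3.8). The 1304 genes against Control-3.8 became 0 with no filter on low values (2861 unadjusted), 0 without a trend (2586 unadjusted) and 456 after the GC correction, and the split of 1287 higher and 17 lower became 274 and 182. The 0 genes against Control-3.12 became 4 with TMM factors, 1 with edgeR, 9 with DESeq2, 20 after the GC correction and 2 without Control-3.8. The causes were not tested. No paired analysis was possible because the labels give the groups no shared replicate numbers. Emb had the fewest reads, with 19 to 56 a library, and with 2 mice a group the exact permutation test of a ratio cannot go below p = 0.333.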
